A study of Mus musculus with 4 samples.

Results

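Imprinted genes were examined in mouse embryonic stem cells with and without the chromatin remodeler Chd1. A locus was taken as a member when its name in either deposited table equalled 1 of 43 symbols from 19 imprinted clusters. Of these 43 genes, 38 were found in set 1 and 37 in set 2. Airn, Asb4, Zim1, Mirg and Snrpn matched no locus by name, and Magel2 was listed in set 1 alone. Gnas was listed at 5 loci per table, and the other 36 genes were listed once in both tables. Of these 36, 32 from 17 clusters averaged 1 FPKM or more across all 4 libraries and entered the test, out of 10261 genes tested in all. FPKM is the number of sequenced fragments scaled to transcript length and to sequencing depth, so levels of different genes can be set side by side. The unit of the deposited values was inferred, and whether spike-ins entered their scaling is not given in the sources used here.

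The cells were Rosa26CreER;Chd1fl/- embryonic stem cells of a pair of independently derived lines, with a tamoxifen-inducible Cre recombinase, 1 floxed and 1 null Chd1 allele. The Chd1-/- cells had received 1 µM tamoxifen and the Control cells ethanol, for 48 to 72 h, and both were then grown on for 3 to 5 passages in serum and LIF with the drug removed. Both groups shared the null allele, so the Control cells had 1 functional copy of Chd1. The labels do not mention picking of clones. Each of 2 sets had 1 Chd1-/- and 1 Control library (n = 2 per group), and which line gave which set is not stated. RNA was taken from matched numbers of live cells, with 92 ERCC spike-in transcripts added, to compare RNA per cell.

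Imprinted genes are transcribed mainly from the allele of 1 parent. Germline differences in DNA methylation at control regions set the choice, and many clusters pair a growth-promoting gene active on the paternal copy with growth-limiting genes or a noncoding RNA active on the maternal copy. In cultured embryonic stem cells imprints are known to be prone to drift with derivation and passage, and levels of H19 and the Dlk1-Meg3 cluster are known to vary from line to line. The libraries carry no allele information here, so every value is the sum of both copies.

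The libraries summed to between 466994 and 719549 FPKM over all loci, and read depth is not given in the sources used here. The 8 pluripotency markers that define these cells were all listed. They summed to 1973 and 1878 FPKM in Chd1-/- cells and to 2662 and 3365 in Control cells. Most of each sum was Dppa5a, at 1032 and 1097 FPKM in Chd1-/- and 1431 and 2088 in Control cells. All 8 were below Control in both sets, against 72.4% of all genes. Of these, 7 fell at a limma adjusted p under 0.05 (87.5%, against 9.80%). They are high genes, for which the limma SE is small, and the shares were not matched for level. After each set's median log2 ratio over all genes was subtracted, 0 of the 8 passed in limma (lowest adjusted p = 0.058). With one common prior variance, or without set as a block, 0 of all 10261 genes passed. Nanog stood at 43.1% and 45.7% of Control, and Pou5f1, which did not pass, at 85.1% and 74.5%. Zfp42, which passed, was at 95.0% and 47.8%. Markers of other cells were low: the primitive endoderm list summed to at most 2.01 FPKM in Chd1-/- and 3.12 in Control libraries, the trophectoderm list to at most 4.10 and 9.27, and the mesoderm list to at most 0.961 and 1.67. Sox17, Sox7, Foxa2, Elf5, Gata3, Hand1, Mixl1, Mesp1 and Hand2 were listed in neither table. The neural list reached 31.0 and 48.0 FPKM, mostly from Tubb3 and Nes. Chd1 itself stood at 5.71 and 8.52 FPKM in Chd1-/- cells, against 27.6 and 17.9 in Control cells of sets 1 and 2. These are 20.7% and 47.7% of Control (log2 fold change -1.66, SE 0.25, limma adjusted p = 1.8e-08).

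Most imprinted genes had lower values in Chd1-/- cells, as most genes did. In both sets 24 of the 32 members (75.0%) were below their Control, against 72.4% of all genes tested, and 0 were above it in both, against 2.81%. The other 8 (25.0%) were on opposite sides of 1 in the sets, against 24.8% of all genes. The median member had a log2 ratio of Chd1-/- over Control of -0.39 in set 1 and -0.45 in set 2, beside -0.46 and -0.33 for all genes. Once libraries were divided by their own totals, the members' medians became -0.078 and 0.023, and those of all genes -0.14 and 0.14. Since that scaling shifts all genes of a set alike, values near 0 turn sign: so did 40.2% of all genes and 11 of the 32 members, none of which passed the test: H19, Ppp1r9a, Rian, Cdkn1c, Ascl2, Tssc4, Cd81, Commd1, Slc38a4, H13 and Inpp5f. In bulk samples fewer cells expressing a gene and less RNA per cell cannot be told apart. A difference in scaling between the libraries cannot be told apart from either here, and none of these was tested.

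Of the 32 members, 5 fell and 0 rose (limma on log2(FPKM + 0.1) with set as a block, Benjamini-Hochberg adjusted p under 0.05 over all genes). They were Igf2, Peg10, Peg3, Grb10 and Phlda2, from 5 different clusters. The share of 15.6% stands beside 9.80% of all genes that fell and 0.0682% that rose. In limma 10 of the 32 members had an unadjusted p under 0.05, as did 29.2% of all genes. The calls rest on a spread between sets that limma shares among genes of similar level. With one common prior variance, or without the block for set, 0 of the 32 passed, and 0 of all 10261 genes. The lowest limma adjusted p was 0.288 and 0.461, for the members and for all genes alike. With only genes of at least 5 FPKM tested, Grb10 alone passed of 23 members, while 225 of 6861 genes fell and 2 rose. After division by library totals Peg10 alone passed. That scaling gave 37 genes that fell and 50 that rose over all genes, against 1006 and 7 as deposited.

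**Figure D1:**
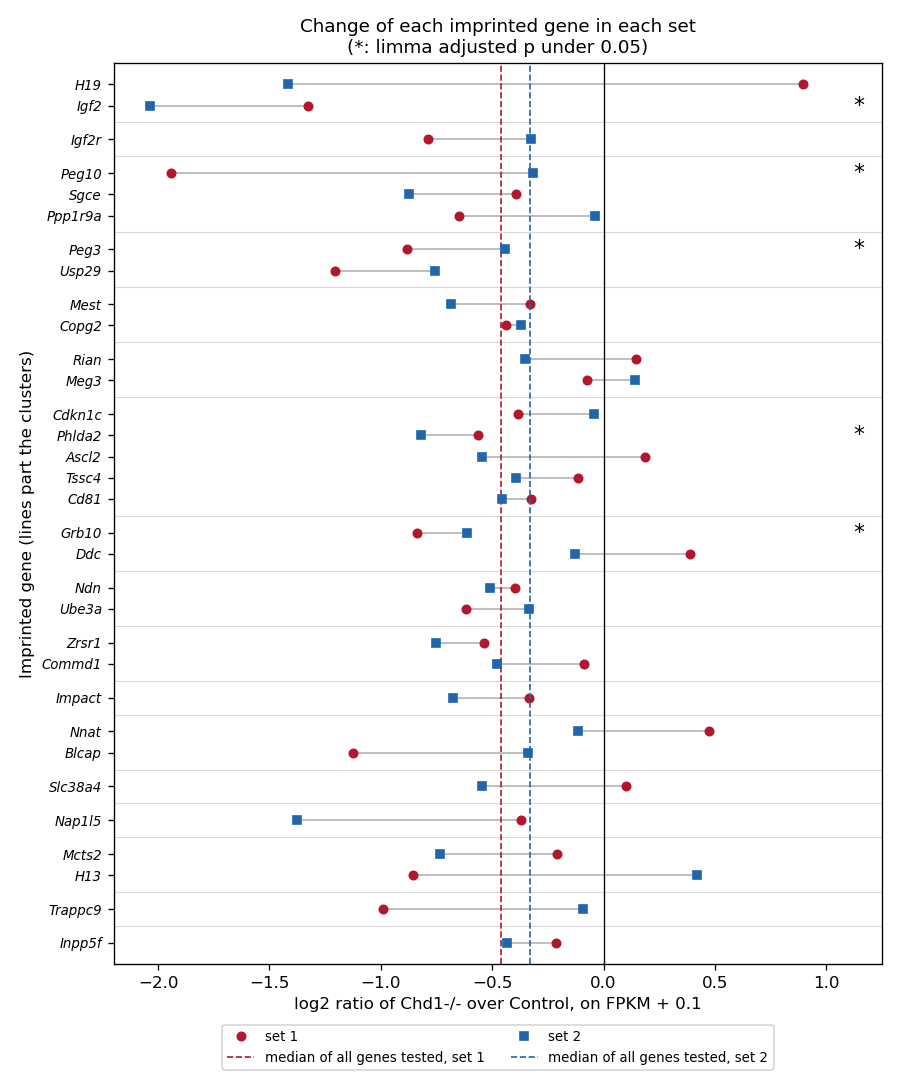
Log2 ratio of Chd1-/- over Control (x axis, on FPKM + 0.1) of the 32 tested imprinted genes (y axis, grouped by cluster) in set 1 (circles) and set 2 (squares); dashed lines mark the median of all genes tested, -0.46 in set 1 and -0.33 in set 2, and a star marks the 5 genes with an adjusted p under 0.05. Most points lie left of 0, while H19 lies at 0.89 in set 1 and -1.42 in set 2.

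Promoter sequence was taken from RefSeq on build GRCm38.p6, in windows of 300 bases that lie mostly upstream of each annotated start. The deposited values were made on mm9 and carry no coordinates, so a window is not tied to the transcript that was measured. For 37 of the 43 members the table held 56 windows; H19, Peg10, Sgce, Cdkn1c, Impact and Trappc9 had no entry. The windows of the 4 members that fell and had an entry are shown because the finding turns on these genes, with the window richest in CG for each. CG dinucleotides, the kind of site at which imprint methylation is carried, are in capitals. The windows were not chosen as imprint control regions, and methylation was not measured. All 4 lie on the minus strand, at chr7:142658755-142659054 for Igf2, chr7:6730370-6730669 for Peg3, chr11:12037371-12037670 for Grb10 and chr7:143502475-143502774 for Phlda2.
Igf2: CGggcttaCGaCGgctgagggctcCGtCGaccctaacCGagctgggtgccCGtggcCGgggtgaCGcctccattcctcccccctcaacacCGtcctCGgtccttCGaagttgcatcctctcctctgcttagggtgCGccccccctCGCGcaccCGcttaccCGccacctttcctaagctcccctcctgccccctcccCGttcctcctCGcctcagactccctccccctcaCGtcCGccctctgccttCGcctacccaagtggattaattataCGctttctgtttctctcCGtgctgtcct
Peg3: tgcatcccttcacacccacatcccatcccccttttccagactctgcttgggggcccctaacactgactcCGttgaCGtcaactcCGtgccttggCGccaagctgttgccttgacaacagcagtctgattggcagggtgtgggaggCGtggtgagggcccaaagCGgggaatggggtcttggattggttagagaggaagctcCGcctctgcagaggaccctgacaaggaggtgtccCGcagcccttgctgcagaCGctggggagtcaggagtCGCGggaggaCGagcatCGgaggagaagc
Grb10: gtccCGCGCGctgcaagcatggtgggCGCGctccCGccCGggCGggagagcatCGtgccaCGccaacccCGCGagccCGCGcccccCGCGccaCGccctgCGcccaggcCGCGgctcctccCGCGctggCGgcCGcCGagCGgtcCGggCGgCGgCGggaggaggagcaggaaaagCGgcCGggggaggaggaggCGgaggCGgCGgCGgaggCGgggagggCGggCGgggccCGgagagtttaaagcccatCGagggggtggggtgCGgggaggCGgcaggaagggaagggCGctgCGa
Phlda2: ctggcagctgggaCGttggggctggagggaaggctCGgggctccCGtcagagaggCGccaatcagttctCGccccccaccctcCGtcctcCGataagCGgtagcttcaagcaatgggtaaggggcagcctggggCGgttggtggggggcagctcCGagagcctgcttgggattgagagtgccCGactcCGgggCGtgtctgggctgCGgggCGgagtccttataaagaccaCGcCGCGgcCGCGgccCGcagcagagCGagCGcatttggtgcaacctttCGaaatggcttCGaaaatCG

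The Grb10 window held 45 CG dinucleotides, more than 98.1% of the 32851 windows in the table. It was picked as the richest of its gene, whose other window held 9, while the windows it is ranked against were not picked. Phlda2 held 26, Igf2 24 and Peg3 13, and the median over all windows was 7. Members' windows ranged from 0 to 48, with a median of 13.5. The Peg3 window shared 263 bases with that of Usp29 on the opposite strand, so this pair of neighbours is read away from 1 stretch of DNA. The hexamer TGCCGC, which ZFP57 binds when it is methylated and through which imprints are held in embryonic stem cells, was searched on both strands (GCGGCA on the other). It occurred in 13 of the 56 member windows (23.2%), against 11.6% of all windows. Overlapping windows, such as those of Mest, were counted separately, and windows of Mest and Nap1l5 held 2 matches each. The hexamer itself holds a CG, and members' windows held more CG than all windows (medians 13.5 and 7). The shares were not adjusted for that, so they do not show an excess of the hexamer beyond CG content. Another Igf2 window, not shown, held 1. The Grb10 window printed above held 1 match and the other 3 shown held 0. These are matches of letters, and no binding was measured.

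Igf2 and H19 share enhancers, and on the paternal copy Igf2, a fetal growth factor, is read while H19, a noncoding RNA that hosts a microRNA, is silent. Igf2 was at 2.06 FPKM in Chd1-/- and 5.31 in Control cells of set 1, and at 0.618 and 2.84 in set 2. Both Chd1-/- libraries were below both Control libraries. The share of all genes parted in this way was not counted, for Igf2 or for the genes below. Of all genes, 72.4% were below Control in both sets, which is a looser trait than this separation. Members that did not pass, among them Cdkn1c, Mest, Copg2 and Cd81, were parted in the same way. The separation is thus given as a description and not as support for a call. Igf2 fell by 1.68 on the log2 scale (limma SE 0.52, adjusted p = 0.021), with an SD of 0.50 between the sets, and stood at 38.7% and 21.7% of Control. It is a low gene, and a filter at 5 FPKM leaves it untested.

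H19 went opposite ways in the sets. It was at 32.0 FPKM in Chd1-/- and 17.2 in Control cells of set 1, and at 17.3 and 46.3 in set 2. The groups overlapped: the set 1 Control and the set 2 Chd1-/- library were nearly level, and the set 2 Control was the highest. Its log2 ratios of 0.89 and -1.42 gave a log2 fold change of -0.26 with an SD of 1.63 between the sets (limma adjusted p = 0.36). H19 was the only member of the 32 whose ratios in the sets were at least 4-fold apart, a limit chosen after its values were seen, and 1.62% of all genes were as far apart. Of the fibroblast and feeder list, 5 of 7 markers were listed in set 1 and 6 in set 2, and it summed to 13.7 FPKM in Chd1-/- and 10.4 in Control cells of set 1, and to 18.6 and 47.7 in set 2. Most of that sum was Acta2, a smooth muscle actin, at 12.1 FPKM in Chd1-/- and 7.93 in Control cells of set 1 and at 14.4 and 38.4 in set 2. Col3a1, a fibrillar collagen of fibroblasts, was at 0.313 and 0.285 FPKM in Chd1-/- and Control cells of set 1, and at 0.866 and 4.07 in set 2, while Lum was listed in neither table. Col1a2, another collagen, was likewise above Control in set 1 and below it in set 2, at 0.408 FPKM in Chd1-/- and 0.234 in Control cells of set 1 and at 0.666 and 1.03 in set 2. The rest of the list did not share the direction of H19 in set 1: the collagen Col1a1 was at 0.564 and 1.09 FPKM in Chd1-/- and Control cells of set 1 and at 1.81 and 1.94 in set 2, and the surface protein Thy1 at 0.304 and 0.869 in set 1 and at 0.373 and 0.948 in set 2. Postn was listed in set 2 alone, at 0.463 FPKM in Chd1-/- and 1.32 in Control cells. The part of these markers in the H19 values was not tested.

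**Figure D2:**
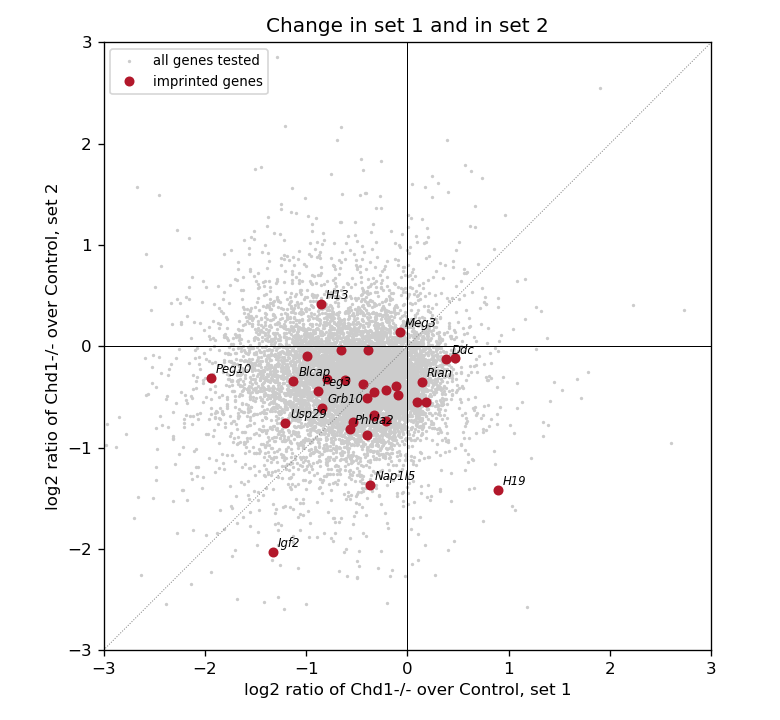
Log2 ratio of Chd1-/- over Control in set 1 (x axis) and set 2 (y axis) for all genes tested (grey) and the 32 imprinted genes (red), with 10 genes outside the plotted range of 3 on either axis; the dotted line marks equal ratios. H19 stands at 0.89 and -1.42, and Igf2 at -1.33 and -2.04.

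Receptors and brakes of growth signalling came next. Igf2r, a maternally expressed receptor that takes Igf2 to the lysosome, was at 9.29 FPKM in Chd1-/- and 16.1 in Control cells of set 1, and at 17.1 and 21.5 in set 2 (log2 fold change -0.56, SE 0.23, limma adjusted p = 0.095). Its values differed between sets enough for the groups to overlap. Grb10, an adaptor protein that damps insulin and IGF receptor signalling, was at 75.2 FPKM in Chd1-/- and 134.5 in Control cells of set 1, and at 61.4 and 93.8 in set 2. Both Chd1-/- libraries lay below both Controls. Grb10 fell by 0.72 (SE 0.17, limma adjusted p = 0.0020), with an SD of 0.16 between sets, to 55.9% and 65.4% of Control. Its neighbour Ddc, which makes dopamine and serotonin from their precursors and is imprinted in the heart, was at 14.0 FPKM in Chd1-/- and 10.7 in Control cells of set 1 and at 4.78 and 5.23 in set 2. Ddc thus differed more between sets than between genotypes (log2 fold change 0.13, limma adjusted p = 0.75).

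The Kcnq1 cluster holds several maternally expressed genes that restrain growth of the embryo or placenta, silenced on the paternal copy by the noncoding RNA Kcnq1ot1. Phlda2, a limiter of placental growth, was at 61.0 FPKM in Chd1-/- and 90.4 in Control cells of set 1, and at 57.6 and 101.8 in set 2. The groups did not overlap. Phlda2 fell by 0.69 (SE 0.17, limma adjusted p = 0.0037), with an SD of 0.18 between the sets. Cdkn1c, an inhibitor of cyclin-dependent kinases, was at 31.3 FPKM in Chd1-/- and 40.9 in Control cells of set 1, and at 39.6 and 40.7 in set 2, and did not pass (log2 fold change -0.21, SE 0.19, limma adjusted p = 0.42). Its Control libraries were nearly level, and only the set 1 Chd1-/- library stood apart.

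The other 3 tested genes of that cluster did not pass. The tetraspanin Cd81 was at 79.7% and 72.9% of Control (limma adjusted p = 0.12), and Tssc4, a splicing factor, at 92.5% and 76.0% (limma adjusted p = 0.39). Ascl2, a transcription factor of trophoblast, was at 3.08 FPKM in Chd1-/- and 2.69 in Control cells of set 1 and at 4.15 and 6.11 in set 2, so it went opposite ways (limma adjusted p = 0.74). Kcnq1ot1 itself was low, at 0.203 FPKM in Chd1-/- and 0.512 in Control cells of set 1 and at 0.340 and 0.258 in set 2, as was the membrane transporter Slc22a18, at 0.432 and 0.358 in set 1 and 0.375 and 0.307 in set 2. Both had a mean under 1 FPKM and were not tested. Kcnq1ot1 lies antisense within Kcnq1, and whether strand was used in counting is not given in the sources used here.

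**Figure D3:**
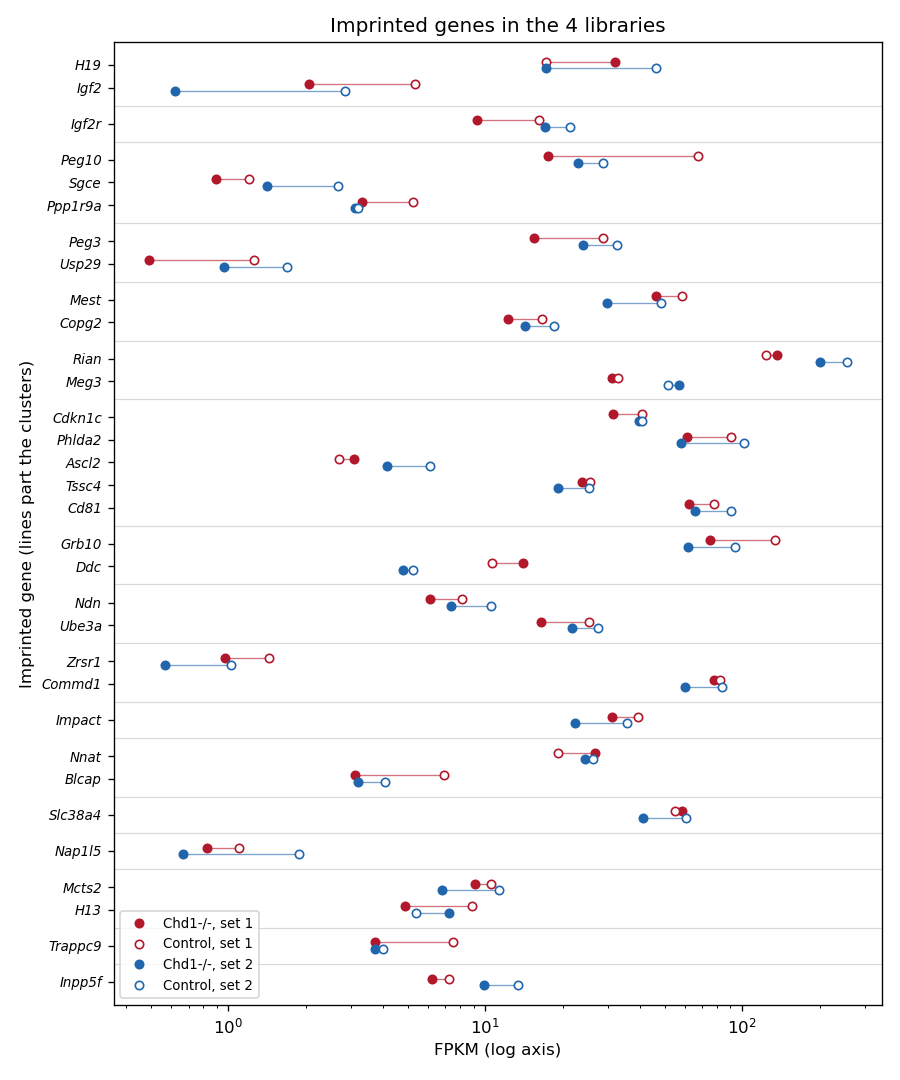
Level in FPKM (x axis, log scale) of the 32 tested imprinted genes (y axis, grouped by cluster) in the Chd1-/- library (filled) and the Control library (open) of set 1 (red) and set 2 (blue), joined within a set. Rian is at 137.2 and 200.2 FPKM in Chd1-/- and 123.9 and 255.9 in Control cells. It is the highest in every library but the set 1 Control, where Grb10 is at 134.5 FPKM. Phlda2 shows both Chd1-/- libraries at or below 61.0 FPKM.

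Peg10, a gene derived from a retrotransposon and needed for placenta formation, was below Control by very different amounts in the sets. It was at 17.5 FPKM in Chd1-/- and 67.4 in Control cells of set 1, and at 23.0 and 28.6 in set 2. Both Chd1-/- libraries were below both Controls, but the set 1 Control stood apart from the other 3. Peg10 fell by 1.13 (SE 0.20, limma adjusted p = 4.6e-06), and the sets gave -1.94 and -0.32, with an SD of 1.15, larger than the mean change. Without set 1 the log2 ratio is -0.32, close to the median of all genes in set 2. The neighbour Sgce, a sarcoglycan read from the same control region, was at 0.895 FPKM in Chd1-/- and 1.21 in Control cells of set 1 and at 1.41 and 2.67 in set 2. Its larger drop was in set 2, the reverse of Peg10 (log2 fold change -0.63, limma adjusted p = 0.47). Ppp1r9a, a neuronal actin-binding protein of the same cluster, stood at 63.0% and 97.4% of Control (limma adjusted p = 0.54).

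Peg3 and Usp29 are paternally expressed neighbours that share a promoter region on opposite strands, and both were below Control in both sets. Peg3, a zinc finger protein, was at 15.5 FPKM in Chd1-/- and 28.7 in Control cells of set 1, and at 23.9 and 32.6 in set 2, with no overlap between the groups. Peg3 fell by 0.66 (SE 0.21, limma adjusted p = 0.023), with an SD of 0.31 between sets. Usp29, a ubiquitin protease, was at 0.489 FPKM in Chd1-/- and 1.26 in Control cells of set 1, and at 0.959 and 1.69 in set 2. Its groups did not overlap either, but at this level the test did not pass (log2 fold change -0.98, SE 0.74, limma adjusted p = 0.35).

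Mest, an enzyme of the hydrolase fold found in embryonic mesoderm, and its neighbour Copg2, a coat protein of Golgi vesicles, were below Control in both sets. Mest was at 46.3 FPKM in Chd1-/- and 58.2 in Control cells of set 1, and at 29.9 and 48.2 in set 2. It came closest to the threshold among the members that did not pass (log2 fold change -0.51, SE 0.18, limma adjusted p = 0.055). Copg2 stood at 73.6% and 77.1% of Control (limma adjusted p = 0.22), with an SD of 0.048 between the log2 ratios, and its mean of -0.41 lies between the medians of all genes in the sets.

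The maternal noncoding RNAs of the Dlk1-Meg3 cluster were not below Control in both sets. Rian, a host of small nucleolar RNAs, was at 137.2 FPKM in Chd1-/- and 123.9 in Control cells of set 1, and at 200.2 and 255.9 in set 2. Meg3 was at 31.1 FPKM in Chd1-/- and 32.8 in Control cells of set 1, and at 56.8 and 51.4 in set 2. For both genes the 2 libraries of set 2 exceeded those of set 1 whatever the genotype. Neither passed (Rian: log2 fold change -0.10, SE 0.17, limma adjusted p = 0.66; Meg3: 0.034, SE 0.19, limma adjusted p = 0.90). Relative to each set's median gene, Meg3 had a log2 change of 0.43 (limma adjusted p = 0.79). Dlk1, the paternally expressed Notch-like ligand of the cluster, was at 0.257 FPKM in Chd1-/- and 0.256 in Control cells of set 1 and at 0.126 and 0.404 in set 2, too low to be tested.

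Of the Snrpn cluster, the human counterpart of which is tied to Prader-Willi and Angelman syndromes, Snrpn was found only within loci that join several names. That locus was named D7Ertd715e,Snrpn,Snurf in set 1, at 86.0 FPKM in Chd1-/- and 81.8 in Control cells, and Snrpn,Snurf in set 2, at 44.6 and 45.5 FPKM. It was not tested, since the loci differ. Ube3a, a ubiquitin ligase imprinted in neurons, was at 16.5 FPKM in Chd1-/- and 25.4 in Control cells of set 1, and at 21.7 and 27.4 in set 2 (log2 fold change -0.48, limma adjusted p = 0.12). Ndn, a growth-suppressing MAGE protein, was at 6.12 FPKM in Chd1-/- and 8.09 in Control cells of set 1, and at 7.38 and 10.6 in set 2 (log2 fold change -0.45, SD 0.081 between sets, limma adjusted p = 0.27). In neither gene did the groups overlap, a separation whose share over all genes was not counted. Magel2, another MAGE gene, was at 0.151 FPKM in Chd1-/- and 0.382 in Control cells of set 1.

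Several members are intronic retrogenes or neighbours inside a host gene, and reads can be hard to divide among them or their parent genes, so single values are uncertain. Mcts2, a translation factor retrogene in an intron of H13, was at 9.14 FPKM in Chd1-/- and 10.6 in Control cells of set 1, and at 6.77 and 11.3 in set 2 (limma adjusted p = 0.23). H13, a signal peptide peptidase, was at 4.85 FPKM in Chd1-/- and 8.86 in Control cells of set 1, and at 7.24 and 5.38 in set 2, so its sets went opposite ways (log2 ratios -0.85 and 0.42, limma adjusted p = 0.62). Zrsr1, a splicing factor retrogene within Commd1, was at 66.9% and 55.4% of Control at no more than 1.45 FPKM in any library (limma adjusted p = 0.55), and its host Commd1, a copper and endosome factor, at 94.0% and 71.8% (limma adjusted p = 0.25).

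Nnat, a small endoplasmic reticulum protein within Blcap, was at 26.8 FPKM in Chd1-/- and 19.3 in Control cells of set 1, and at 24.3 and 26.3 in set 2. It had the highest log2 fold change of the 32 members, 0.18, and did not pass (SE 0.21, limma adjusted p = 0.53). Its host Blcap, a small protein first linked to bladder cancer, was at 3.10 FPKM in Chd1-/- and 6.88 in Control cells of set 1, and at 3.20 and 4.08 in set 2 (log2 fold change -0.73, limma adjusted p = 0.18). The groups of Blcap did not overlap while those of Nnat did. Nap1l5, a relative of nucleosome assembly proteins, was at 0.828 FPKM in Chd1-/- and 1.10 in Control cells of set 1, and at 0.667 and 1.89 in set 2 (log2 fold change -0.87, SE 0.73, limma adjusted p = 0.40).

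The remaining members did not pass. Impact, a regulator of the kinase Gcn2, stood at 79.3% and 62.4% of Control (limma adjusted p = 0.072). Slc38a4, an amino acid transporter, was at 58.5 FPKM in Chd1-/- and 54.7 in Control cells of set 1 and at 41.2 and 60.2 in set 2 (limma adjusted p = 0.38). Trappc9, a vesicle tethering factor, was at 49.7% of Control in set 1 and 93.6% in set 2 (limma adjusted p = 0.29), and Inpp5f, a phosphoinositide phosphatase, at 86.1% and 73.8% (limma adjusted p = 0.41). Plagl1, a zinc finger factor that regulates other imprinted genes, was at 0.174 FPKM in Chd1-/- and 0.737 in Control cells of set 1 and at 0.325 and 0.180 in set 2, too low to be tested. Gnas, the stimulatory G protein subunit, had 1 main locus at 54.2 FPKM in Chd1-/- and 90.8 in Control cells of set 1, and at 68.7 and 80.0 in set 2. Its other 4 loci per table lay between 0.473 and 5.27 FPKM in Chd1-/- and between 1.95 and 3.64 in Control cells, 2 of the 4 below Control in set 1 and 2 in set 2. Repeated symbols were kept out of the test.

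The second comparison asked which members departed from the shift most genes shared, after each set's median log2 ratio was subtracted. In limma 0 of the 32 members fell and 0 rose, against 0.214% and 0.146% of all genes, with 3 of the 32 at an unadjusted p under 0.05 beside 6.29% of all genes. The lowest adjusted p was 0.16, for Peg10 (relative log2 change -0.73), and Igf2 followed with -1.29 (limma adjusted p = 0.38). In both sets 8 members (25.0%) lay under the median of all genes, against 24.6% of all genes. They were Igf2, Peg3, Usp29, Phlda2, Grb10, Ube3a, Zrsr1 and Blcap. Another 4 (12.5%) lay above it in both sets, against 24.6% of all genes: Meg3, Cdkn1c, Ddc and Nnat.

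Members were also grouped by the parental allele they are known to be expressed from in some tissue. Allele use in these cells was not measured, and members such as Ddc and Ube3a are named above as imprinted in other tissues. Of 15 paternally expressed genes tested, 12 were below Control in both sets (80.0%) and 3 fell (20.0%). Of 17 maternally expressed genes tested, 12 were below Control in both sets (70.6%) and 2 fell (11.8%). Over all genes these shares were 72.4% and 9.80%. The medians of log2 ratios were -0.37 and -0.68 for paternally expressed genes in sets 1 and 2, and -0.44 and -0.35 for maternally expressed genes. The order of the groups thus turned round between the sets. Among clusters with more than 1 tested gene, every tested gene was below Control in both sets in the Peg3, Mest, Peg10-Sgce, Snrpn and Zrsr1-Commd1 clusters. None was in the Dlk1-Meg3 cluster, and in the Igf2-H19, Kcnq1, Grb10, Nnat-Blcap and Mcts2-H13 clusters some were. Peg10-Sgce had 3 tested genes, and the others wholly below Control and Dlk1-Meg3 had 2 each. With so few genes, and 72.4% of all genes below Control in both sets, this does not show a pattern by cluster.

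The levels of the sets were then compared within a genotype, set 1 against set 2, as a description without a test, since each has 1 library and the tables may have been scaled separately. None of the 32 members differed at least 4-fold between the Control libraries, against 1.73% of all genes. At least 2-fold apart were 6 members (18.8%), against 11.6% of all genes. The median log2 level of set 1 over set 2 was -0.12 for the members and 0.029 for all genes. Higher in the set 1 Control were 2 of the 32, against 6.26% of all genes: Peg10 (67.4 FPKM in set 1 and 28.6 in set 2, 2.35-fold on FPKM + 0.1) and Ddc (10.7 and 5.23, 2.02-fold).

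Higher in the set 2 Control were 4 of the 32 (H19, Rian, Ascl2 and Sgce), against 5.37% of all genes. H19 in set 1 stood at 0.373 of its set 2 Control level, Ascl2 at 0.450, Sgce at 0.472 and Rian at 0.484. Of the 6 genes, 4 kept the direction between the Chd1-/- libraries, and 1, Ddc, was again at least 2-fold apart (14.0 FPKM in set 1 and 4.78 in set 2). H19 and Peg10 turned round, with 1.85-fold and 0.762-fold levels in set 1 over set 2. Between the Chd1-/- libraries 2 members were at least 2-fold apart, Ddc and Igf2 (6.25%, against 12.0% of all genes).

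**Figure D4:**
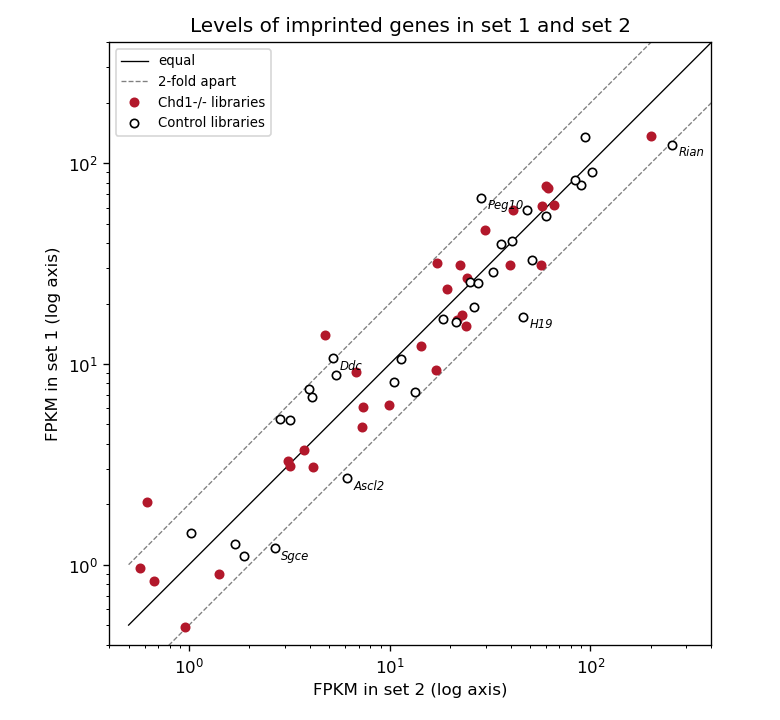
Level in FPKM of the 32 tested imprinted genes in set 1 (y axis, log scale) and set 2 (x axis, log scale), for the Chd1-/- libraries (filled) and the Control libraries (open); the solid line marks equal levels and the dashed lines a 2-fold difference, and the 6 genes at least 2-fold apart in Control libraries are named. H19 lies at 17.2 and 46.3 FPKM and Peg10 at 67.4 and 28.6 FPKM in set 1 and set 2.

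A wider list of 62 symbols reported as imprinted in mouse in some tissue, or lying beside imprinted genes, had 23 tested members. Of these 6 fell (26.1%, against 9.80% of all genes) and 0 rose. Their median log2 ratios were -0.64 in set 1 and -0.55 in set 2, beside -0.46 and -0.33 for all genes. Sfmbt2, a Polycomb-type protein needed in trophoblast, was at 7.85 FPKM in Chd1-/- and 20.1 in Control cells of set 1, and at 0.994 and 2.55 in set 2. Its sets differed 7.62-fold in the Control libraries (set 1 over set 2, on FPKM + 0.1), yet it fell alike in both (by 1.31, SE 0.36, limma adjusted p = 0.0099). Gab1, a docking protein of growth factor receptors, was at 27.5 FPKM in Chd1-/- and 61.1 in Control cells of set 1, and at 25.2 and 38.1 in set 2 (limma adjusted p = 0.00060). Jade1, a subunit of a histone acetyltransferase complex, was at 30.1 and 67.3 FPKM in Chd1-/- and Control cells of set 1, and at 23.5 and 35.0 in set 2 (limma adjusted p = 0.00067). The others were the actin nucleator Cobl (log2 fold change -1.33), the extracellular matrix protein Smoc1 (-1.05) and Dhcr7, the last enzyme of cholesterol synthesis (-0.96), with limma adjusted p of 0.023, 0.021 and 0.045. In limma 0 of these 23 passed with one common prior variance, without the block for set, or after division by library totals. At an unadjusted p under 0.05 were 8, 3 and 3 of them, beside 1718, 1043 and 734 of all 10261 genes. Of these settings only the division by totals gave any call over all genes. With only genes of at least 5 FPKM tested, Gab1 and Jade1 passed of 12, while 225 of 6861 genes fell. Relative to the shared shift, 0 of the 23 passed in limma, with 5 at an unadjusted p under 0.05 beside 6.29% of all genes.

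Proteins that set, hold or read imprints were listed separately, and 11 of 20 fell (55.0%, against 9.80% of all genes) while 0 rose. Their median log2 ratios were -0.49 in both sets, beside -0.46 and -0.33 for all genes. All 20 averaged at least 7.89 FPKM, while the genes tested began at 1 FPKM. The limma SE is smaller for high genes, at 0.17 for Phlda2 and 0.74 for Usp29. The shares were not matched for level. Zfp57, the zinc finger protein that binds methylated imprint control regions, was at 25.6 FPKM in Chd1-/- and 52.4 in Control cells of set 1, and at 21.0 and 31.5 in set 2 (log2 fold change -0.81, SE 0.20, limma adjusted p = 0.0026). Its partner Trim28, a corepressor, was at 636.6 FPKM in Chd1-/- and 1069 in Control cells of set 1, and at 572.8 and 942.9 in set 2 (-0.73, SE 0.19, limma adjusted p = 0.0041). For both genes the groups did not overlap. Ctcf, the insulator protein that separates Igf2 from its enhancers on the maternal copy, fell by 0.83 (SE 0.19, limma adjusted p = 0.0015). The methylcytosine oxidases Tet1 and Tet2 fell by 1.01 and 1.17 (limma adjusted p = 0.00090 and 0.0046), and the Polycomb proteins Ezh2 and Suz12 by 0.83 and 0.85 (limma adjusted p = 0.0031 and 0.0023). The other 4 were Uhrf1 (-0.48), which guides maintenance methylation, the chromatin remodeler Hells (-0.53), the histone chaperone Daxx (-0.58) and the histone methyltransferase Ehmt2 (-0.64). In limma 0 of the 20 passed with one common prior variance, without the block for set, or after division by library totals. At an unadjusted p under 0.05 were 7, 11 and 8 of them, beside 1718, 1043 and 734 of all 10261 genes. Of these settings only the division by totals gave any call over all genes. With only genes of at least 5 FPKM tested, Zfp57, Trim28 and Ctcf passed, while 225 of 6861 genes fell.

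The DNA methyltransferases did not pass. Dnmt1, Dnmt3b and Dppa3 are named here after their values were seen. Dnmt1, which maintains methylation, was at 41.0 FPKM in Chd1-/- and 57.3 in Control cells of set 1, and at 45.9 and 54.6 in set 2 (log2 fold change -0.37, limma adjusted p = 0.16). Dnmt3b was at 244.1 FPKM in Chd1-/- and 265.8 in Control cells of set 1, and at 280.1 and 288.3 in set 2 (-0.082, limma adjusted p = 0.73). Dppa3, which guards imprints in the early embryo, was at 195.2 FPKM in Chd1-/- and 190.5 in Control cells of set 1, and at 67.3 and 93.8 in set 2 (-0.22, limma adjusted p = 0.35), with both libraries of set 1 above both of set 2. Relative to the shared shift, 0 of the 20 passed in limma, with 3 at an unadjusted p under 0.05 beside 6.29% of all genes.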

How the data were processed

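RNA of 2 Chd1-/- and 2 Control libraries was measured by strand-specific, ribosome-depleted RNA-seq, per the labels' protocols. The deposited values were taken as FPKM, a unit inferred from their range and from the tools: Cufflinks 2.2.0, Cuffdiff, TopHat and TopHat2 2.0.10 appear in the submitters' processing notes, with build mm9. What each tool did, the annotation and whether spike-ins entered the scaling is not given in the sources used here. A deposited ratio of knockout over control stands in each table and was checked against the value columns only. Lowest values were 0.100 in each library. Loci with no symbol, merged names or repeated symbols were left out of tests, which ran on genes named once in both tables.

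Values were compared as log2(FPKM + 0.1), which understates changes of low genes, with limma 3.58.1 in R 4.3.3 (variance trend on level, two-sided, Benjamini-Hochberg adjustment at 0.05). Set was a block, since ratios are taken within a table and deviations of the 2 libraries of a set correlated (r = 0.483). The prior degrees of freedom were infinite, so that p-values use a spread shared by genes of similar level. It is not stated that the sets are separate lines or cultures, so p-values measure the spread between these libraries, which may be technical. An exact sign-flip test of 2 pairs cannot go below 0.5. The fit was tested on simulated data with 1 spread per level. The fit itself assumes such a spread, so the simulation does not test whether these data have it. Every member found is named, and of the other 2 imprinting lists the genes past the threshold and up to 3 with the largest mean change of one sign in both sets, with exceptions stated. Members and lists were chosen with earlier results of these data known. Alternatives were pseudocount, filter, variance model, block, scaling, level trend and leaving out a set.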

Additional observations from a re-analysis of the deposited data

Results flagged for a closer look

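In 8 of the 32 tested members (25.0%, against 24.8% of all genes) the log2 ratio of Chd1-/- over Control was on opposite sides of 0 in the sets. The difference between the sets was not tested, since each set has 1 pair of libraries. The log2 ratio of set 1 minus that of set 2 was 2.31 for H19, 0.73 for Ascl2, 0.64 for Slc38a4, 0.59 for Nnat, 0.51 for Ddc, 0.50 for Rian, -0.22 for Meg3 and -1.27 for H13.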

How the results depend on the processing

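The number of members that fell was 5 with a pseudocount of 1 and with no filter on the mean, 1 with a mean of at least 5 FPKM (Grb10, 23 members tested), 1 after division by library totals (Peg10, limma adjusted p = 0.023), 0 with one common prior variance and 0 with no replicate block. With no replicate block 5 members, and with one common prior variance 7, had an unadjusted p under 0.05 in limma. Over all 10261 genes 1043 and 1718 had one, and 0 passed after adjustment. Under those last 2 settings Chd1 had the same log2 fold change of -1.66 but did not pass (limma adjusted p = 0.461 and 0.288). Without set 1 or set 2, which leaves 1 pair and no test, it was -1.06 or -2.25. The members' median log2 ratio in set 1 was -0.32 with a pseudocount of 1 and -0.078 with library totals, and in set 2 it was 0.023 with library totals, where it turned sign. The count of members at least 4-fold apart between Control libraries became 6 at 2-fold. The cause of these differences was not tested. In the relative comparison 0 members passed under every setting run. The block for set rests on the labels' set numbers and on r = 0.483 between the libraries of a set. With only 2 pairs, no read depth and no allele information, absence of a call does not show that a gene held its level.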
